A study of Mus musculus with 4 samples.

Results

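Complement genes other than the C1q chains were described in single cells of the mouse hippocampus. The 9 members, C3, C4b, Clu, Serping1, Cd59a, Cr1l, C3ar1, C5ar1 and C5ar2, were taken by gene symbol from the 31055 genes that the count files list. All 9 had counts, from 50 unique molecular identifiers (UMIs, each marking 1 captured RNA molecule) for C3 to 20545 for Clu.

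Complement is a cascade of proteins in which activated proteases cut C4 and then C3, whose fragments bind to surfaces as tags, while small fragments of C3 and C5 act as chemoattractants on their own receptors. Regulators in the fluid phase and on membranes inhibit the first proteases, take apart the enzymes that cut C3, or block the pore that ends the cascade. In the brain, glia make several of these components locally, and tagging of synapses for uptake by microglia is the process for which the pathway is best known there.

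One library was made from the hippocampi of each of 2 male Dp(10)2Yey mice and 2 male wild-type (WT) littermates, all 3 months old and on a C57BL/6J background. Dp(10)2Yey mice carry, on 1 of their copies of chromosome 10, a duplication of the stretch that matches part of human chromosome 21. The WT libraries held 3002546 UMIs in 1039 barcodes and 6848466 in 1708, and the Dp(10)2Yey libraries 5112759 in 1372 and 9612011 in 2345, with replicate 1 before replicate 2 here and wherever values of a genotype are paired. The comparison asked which genes and gene sets differ in expression in this model of Down syndrome.

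In the libraries labelled Dp(10)2Yey, 29 of 31 tested genes of the duplicated stretch had a positive log2 fold change of Dp(10)2Yey over WT, with a median of 0.58 beside 0.585 for 3 copies against 2. No member lies on chromosome 10. WT replicate 1 stood apart in depth, with a median of 2049 UMIs per barcode, against 3386.5 to 3696 in the other libraries. It also stood apart in makeup, since 5.72% of its cells fell in the ependymal-like class, against 0.892% to 1.54% elsewhere. Barcode sequences shared between libraries made 8 pairs among 6464 barcodes.

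After filtering, 6247 cells formed 16 clusters, of which 13 were named by marker genes and fell into 10 classes, with the members left out of the genes that placed the cells. Of these classes 8 had at least 10 cells in every library and were compared. They were microglia-like (2573 cells), astrocyte-like (894), ependymal-like (125), choroid plexus epithelial-like (125), endothelial-like (280), neuron-like (430), oligodendrocyte-like (969) and oligodendrocyte precursor-like (459). The endothelial-like cluster also had globin genes among its leading genes, and the neuron-like cluster had a median of 27.9% mitochondrial UMIs. The 3 clusters without a name are called by their leading genes. Levels are in CPM, the UMIs of a gene divided by all UMIs of the class in a library and scaled to 1000000, and are given as the mean ± SD over the 4 libraries. Levels are compared between cells for 1 gene at a time, not between genes.

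**Figure D1:**
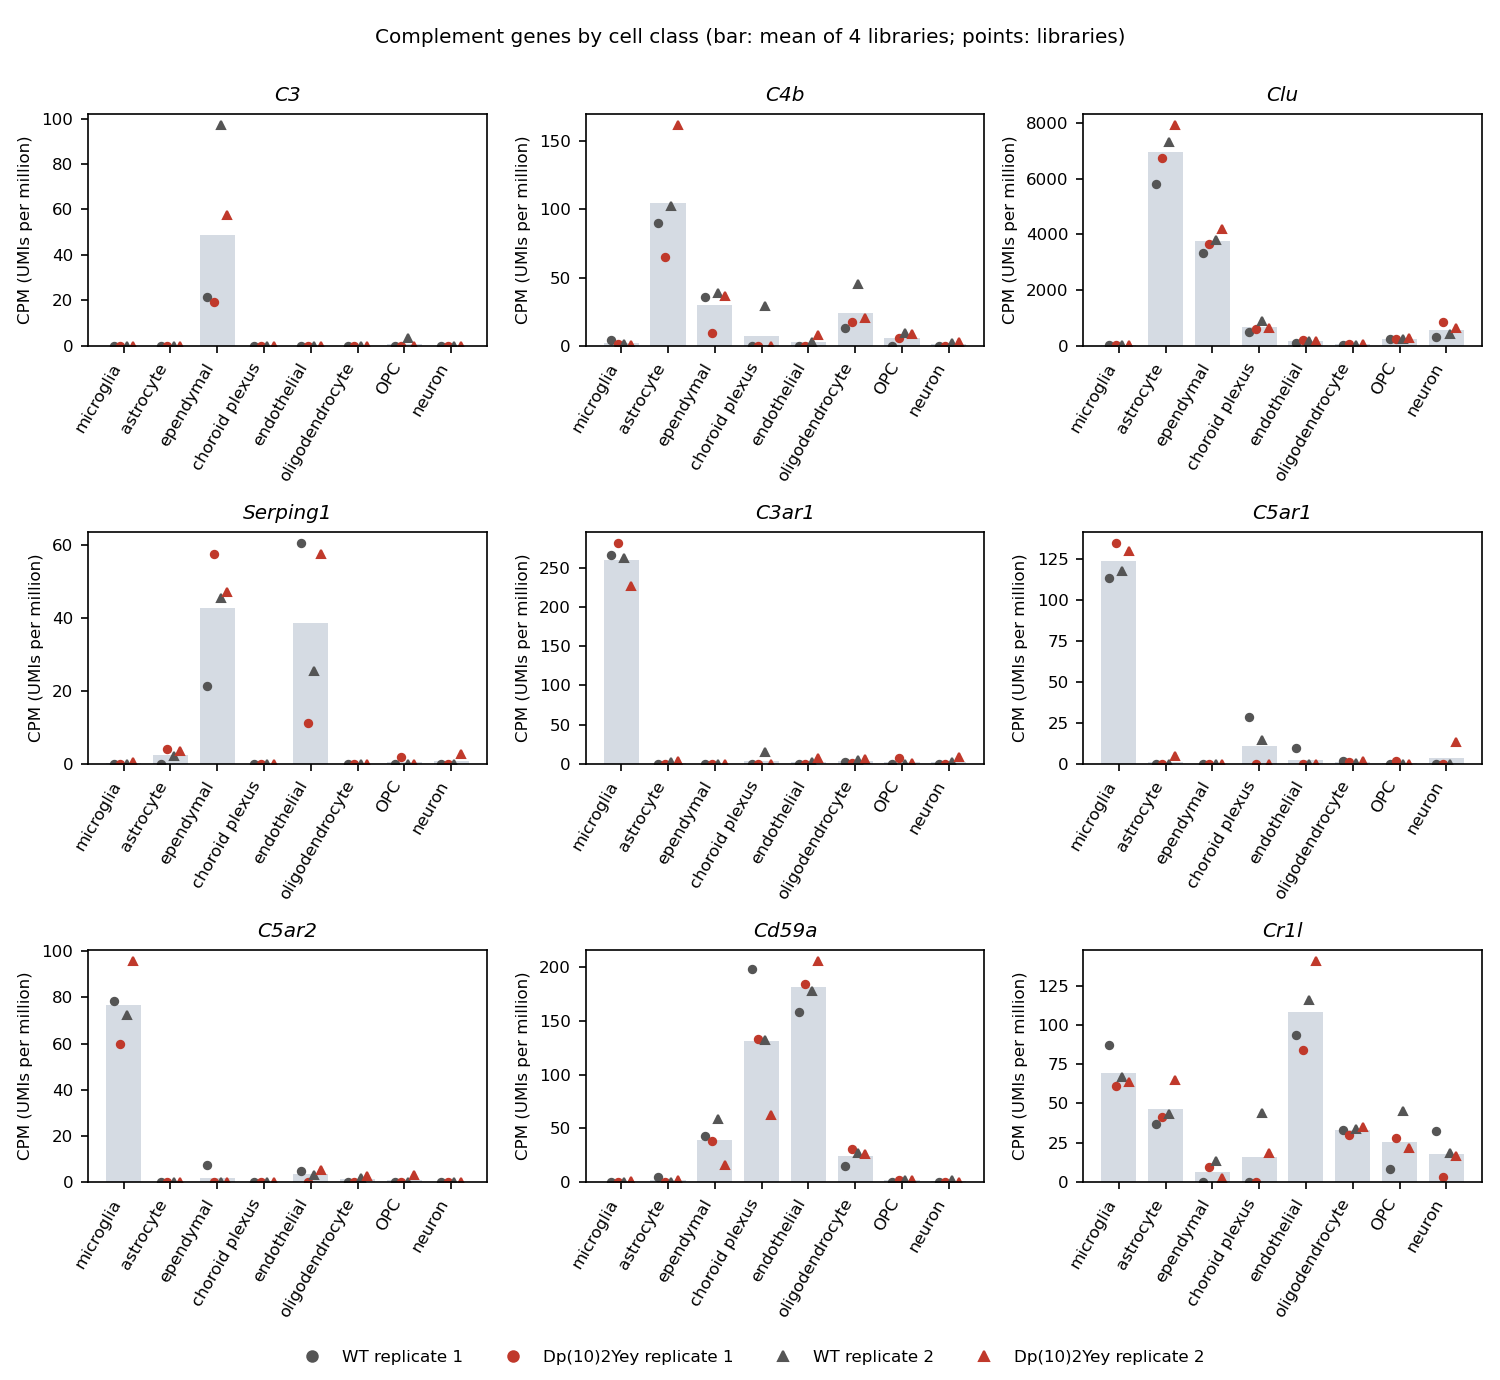
Level of each of the 9 complement genes in the 8 compared classes, in CPM on a linear axis that starts at 0 and has its own scale for each gene. Bars are means of the 4 libraries and points are single libraries, grey for WT and red for Dp(10)2Yey. C3ar1, C5ar1 and C5ar2 stand out in microglia-like cells, Clu and C4b in astrocyte-like cells, C3 in ependymal-like cells and Cd59a in endothelial-like and choroid plexus epithelial-like cells.

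The effector C3 (ENSMUSG00000024164, GRCm38 chromosome 17, 57203970 to 57228136), the protein on which all routes of activation meet, was counted mainly in ependymal-like cells. They held 42 of its 50 UMIs (84.0%). Its level there was 21.4 and 97.3 CPM in the WT and 19.1 and 57.6 in the Dp(10)2Yey libraries, a mean of 48.9 ± 36.8. The 2 libraries numbered 1 were low and the 2 numbered 2 were high, so that the genotypes overlapped, and the low values rest on 3 and 2 UMIs.

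C3 was seen in 17.6% of 125 ependymal-like cells (median depth 2398 UMIs) and in 0 of 2573 microglia-like cells (median depth 3601 UMIs), which allows a share of up to 0.117% of microglia-like cells with a UMI. With every cell thinned to 1000 UMIs, the shares were 4.35% and 0%, the latter allowing up to 0.141%. Among the other compared classes only oligodendrocyte precursor-like cells held any UMIs of C3, 2 in all, and the cluster led by S100a9 and S100a8 held 6. The UMIs of that cluster were 3 each in the Dp(10)2Yey libraries (78.2 and 16.8 CPM) and 0 in the WT libraries. In Dp(10)2Yey replicate 1 this level was above that of ependymal-like cells, with 3 of the library's 5 UMIs of C3.

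The other effector, C4b (ENSMUSG00000073418, chromosome 17, 34728380 to 34743882), which is cut by the first proteases of the classical and lectin routes, was highest among the compared classes in astrocyte-like cells. Its level there was 90.3 and 103 CPM in the WT and 65.1 and 162 in the Dp(10)2Yey libraries (105 ± 41.2, 242 of 490 UMIs). The Dp(10)2Yey libraries were the lowest and the highest of the 4, so the genotypes overlapped. C4b has a near-identical copy, C4a, which lies 65209 bases away and is not among the genes of the files, so its counts may be uncertain.

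Ependymal-like cells came next for C4b (30.2 ± 13.8 CPM, 26 UMIs), and their range overlapped that of oligodendrocyte-like cells (24.1 ± 14.6, 141 UMIs) but not that of astrocyte-like cells. The other 5 classes had means of 1.13 to 7.35 CPM, each overlapping its neighbour in the order. Oligodendrocyte-like cells still held 28.8% of all C4b UMIs, from 969 cells with a median of 4971 UMIs. Among clusters without a name, the one led by S100a9 and S100a8, whose leading genes include the border macrophage markers Pf4 and Mrc1, had 145 and 238 CPM in the WT and 130.3 and 39.1 in the Dp(10)2Yey libraries, from 33 UMIs. Both WT libraries were above both Dp(10)2Yey libraries there, on 5 to 16 UMIs each. The level in this cluster was above that of astrocyte-like cells in the same library, except in Dp(10)2Yey replicate 2 (39.1 against 162 CPM).

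C4b was seen in 15.5% of astrocyte-like cells (median depth 1601.5 UMIs), 6.40% of oligodendrocyte-like cells (4971 UMIs) and 0.311% of microglia-like cells (3601 UMIs). At 1000 UMIs per cell the shares were 9.93%, 2.28% and 0.141%. The order of the 3 classes was the same at equal depth, with oligodendrocyte-like cells between astrocyte-like and microglia-like cells. The cluster led by S100a9 and S100a8 had shares near those of astrocyte-like cells, 18.0% as counted (1900 UMIs) and 9.64% at 1000 UMIs.

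Among the regulators, Clu (ENSMUSG00000022037, chromosome 14, 65968483 to 65981547) encodes clusterin, a secreted chaperone that binds the terminal complex. It was highest in astrocyte-like cells, which held 73.5% of its UMIs. Its level there was 5795 and 7313 CPM in the WT and 6738 and 7943 in the Dp(10)2Yey libraries (6947 ± 912). The genotypes overlapped, with WT replicate 1 lowest.

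Ependymal-like cells followed with 3748 ± 358 CPM of Clu, a range from 3343 to 4205 that did not touch that of astrocyte-like cells. Then came choroid plexus epithelial-like (656 ± 160.5) and neuron-like cells (566 ± 244), which overlapped each other. The order went on with oligodendrocyte precursor-like cells (248 ± 21.3), endothelial-like cells (158 ± 35.1), oligodendrocyte-like cells (50.6 ± 27.7) and microglia-like cells (24.9 ± 7.25). Of these lower neighbours only the last pair overlapped.

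At 1000 UMIs per cell Clu was seen in 95.03% of astrocyte-like, 93.5% of ependymal-like, 38.4% of neuron-like, 22.3% of oligodendrocyte precursor-like, 5.42% of oligodendrocyte-like and 1.83% of microglia-like cells. As counted, the shares were 93.5% of astrocyte-like cells (median depth 1601.5 UMIs) and 5.05% of microglia-like cells (3601 UMIs). The share in microglia-like cells at equal depth lay between 1.58% and 2.18% in the 4 libraries. Empty droplets were not used here, so how much free Clu RNA each library held is not known.

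One cell dominated Clu in the 51 Cajal-Retzius cell-like cells. Dp(10)2Yey replicate 2 held 112 of their 117 UMIs, and 100 of these were in 1 cell, which Scrublet did not call a doublet. The other libraries held 0 to 3 UMIs, so no level is given for that class.

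Serping1 (ENSMUSG00000023224, chromosome 2, 84765387 to 84775444) encodes the C1 inhibitor, which blocks the proteases C1r and C1s. It had 151 UMIs. In ependymal-like cells its level was 21.4 and 45.4 CPM in the WT and 57.4 and 47.1 in the Dp(10)2Yey libraries (42.8 ± 15.3, 34 UMIs). Both Dp(10)2Yey libraries were above both WT libraries there, on 3 to 18 UMIs each, the reverse of sums of all cells below, and the difference was not tested. In endothelial-like cells it was 60.7 and 25.4 in the WT libraries and 11.2 and 57.4 in the Dp(10)2Yey libraries, each in the order of their numbers (38.7 ± 24.3, 46 UMIs). The 2 classes overlapped widely, and which of them leads changed when Dp(10)2Yey replicate 1 was left out (47.9 CPM in endothelial-like and 38.0 in ependymal-like cells) or when WT replicate 2 was left out (43.1 and 41.97).

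No other compared class had a mean above 2.39 CPM of Serping1, and oligodendrocyte-like cells had 0 UMIs, which allows up to 0.577 CPM. The 21 cells of the cluster led by Mgp and Prg4 held 30 UMIs of Serping1. Of these, 25 were from WT replicate 2 (273 CPM), 4 from Dp(10)2Yey replicate 2 (117 CPM) and 1 from WT replicate 1, and Dp(10)2Yey replicate 1 had no cell there. A further 27 UMIs were in the 187 cells of the cluster led by Igfbpl1 and Sox11, from 17.8 to 50.3 CPM over the libraries. These clusters held 19.9% and 17.9% of all UMIs of the inhibitor.

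Serping1 was seen in 15.2% of ependymal-like cells (median depth 2398 UMIs), 7.86% of endothelial-like cells (2110 UMIs) and 0.0777% of microglia-like cells (3601 UMIs). At 1000 UMIs per cell the shares were 2.17%, 5.56% and 0%, the last allowing up to 0.141%. The order of ependymal-like and endothelial-like cells was thus not the same at equal depth.

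Cd59a (ENSMUSG00000032679, chromosome 2, 104095801 to 104115354) encodes a lipid-anchored protein that blocks the membrane attack complex. Endothelial-like cells held 209 of its 412 UMIs. Its level there was 159 and 178 CPM in the WT and 185 and 206 in the Dp(10)2Yey libraries (182 ± 19.6). The WT libraries were both below the Dp(10)2Yey libraries. A copy of the gene, Cd59b, ends 4613 bases before it starts, and the counts of such similar genes may be uncertain.

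Choroid plexus epithelial-like cells were next for Cd59a, at 198 and 132 CPM in the WT and 134 and 62.1 in the Dp(10)2Yey libraries (131.5 ± 55.6, 31 UMIs), a range that overlapped that of endothelial-like cells. Ependymal-like cells had 42.8 and 58.4 CPM in the WT libraries and 38.3 and 15.7 in the Dp(10)2Yey libraries (38.8 ± 17.6, 25 UMIs), and overlapped oligodendrocyte-like cells (24.4 ± 6.86, 135 UMIs). In ependymal-like cells both Dp(10)2Yey libraries were below both WT libraries, the reverse of endothelial-like cells as counted, and this difference was not tested. The other 4 classes had means of 0.0699 to 1.32 CPM.

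Cd59a was seen in 37.9% of endothelial-like cells (median depth 2110 UMIs), 8.57% of oligodendrocyte-like cells (4971 UMIs) and 1 of 2573 microglia-like cells (0.0389%, 3601 UMIs). At 1000 UMIs per cell it was seen in 14.1%, 1.84% and 0% of them, the last allowing up to 0.141%. Choroid plexus epithelial-like and ependymal-like cells had shares of 13.3% and 5.43% at that depth, both above that of oligodendrocyte-like cells. As counted their shares were 19.2% (1461 UMIs) and 15.2% (2398 UMIs). By count of UMIs, oligodendrocyte-like cells, with 32.8%, were the other main holder of Cd59a.

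Cr1l (ENSMUSG00000016481, chromosome 1, 195097382 to 195131586) encodes the rodent membrane protein also called Crry, which takes apart the enzymes that cut C3. Among the compared classes its level was highest in endothelial-like cells, with 93.3 and 116 CPM in the WT and 83.9 and 141 in the Dp(10)2Yey libraries (109 ± 25.5, 130 UMIs). The Dp(10)2Yey libraries were the lowest and the highest.

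Microglia-like cells held most of the Cr1l count, 609 of 1179 UMIs (51.7%). Their level was 87.5 and 66.7 CPM in the WT and 60.8 and 63.8 in the Dp(10)2Yey libraries (69.7 ± 12.1). WT replicate 1 was high, the other WT library was close to the Dp(10)2Yey libraries, and the genotypes did not overlap. The range overlapped that of endothelial-like cells above and of astrocyte-like cells below (46.6 ± 12.6). The cluster led by S100a9 and S100a8 had 116 and 74.2 CPM of Cr1l in the WT and 130.3 and 83.9 in the Dp(10)2Yey libraries (29 UMIs), above endothelial-like cells in the libraries numbered 1 and below them in those numbered 2.

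Lower still were oligodendrocyte-like (32.8 ± 2.09), oligodendrocyte precursor-like (25.5 ± 15.4), neuron-like (17.5 ± 11.9), choroid plexus epithelial-like (15.7 ± 20.9) and ependymal-like cells (6.29 ± 6.02 CPM of Cr1l), each overlapping the next. At 1000 UMIs per cell Cr1l was seen in 12.6% of endothelial-like, 5.87% of microglia-like, 5.65% of astrocyte-like and 3.905% of oligodendrocyte-like cells, and in 0 of 92 ependymal-like cells, which allows up to 3.26%. As counted, the shares were 32.1% of endothelial-like cells (median depth 2110 UMIs) and 3.20% of ependymal-like cells (2398 UMIs).

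The receptors C3ar1, C5ar1 and C5ar2 were all counted mainly in microglia-like cells. C3ar1 (ENSMUSG00000040552, chromosome 6, 122847138 to 122856161) encodes the receptor of the small fragment C3a. Its level in microglia-like cells was 266 and 262.5 CPM in the WT and 282 and 227 in the Dp(10)2Yey libraries (259 ± 23.4), and they held 2292 of its 2422 UMIs (94.6%). The Dp(10)2Yey libraries were again the highest and the lowest. The other compared classes had means of at most 3.67 CPM.

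C5ar1 (ENSMUSG00000049130, chromosome 7, 16246743 to 16259540) encodes the main receptor of the fragment C5a. Its level in microglia-like cells was 113 and 118 CPM in the WT and 135 and 129.8 in the Dp(10)2Yey libraries (124 ± 10.2, 1137 of 1239 UMIs, 91.8%). Both Dp(10)2Yey libraries were above both WT libraries.

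C5ar2 (ENSMUSG00000074361, chromosome 7, 16234585 to 16244154) encodes the other receptor of C5a, which does not couple to G proteins. The genes of the 2 receptors lie 2588 bases apart, both on the minus strand. Microglia-like cells held 725 of its 755 UMIs (96.0%). The level was 78.5 and 72.4 CPM in the WT and 59.7 and 96.0 in the Dp(10)2Yey libraries (76.6 ± 15.1). The Dp(10)2Yey libraries were the lowest and the highest, unlike those of C5ar1.

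In microglia-like cells at 1000 UMIs, C3ar1 was seen in 20.8%, C5ar1 in 10.6% and C5ar2 in 8.02% of cells. In oligodendrocyte-like cells at that depth the shares were 0.108% for C3ar1, 0% (allowing up to 0.325%) for C5ar1 and 0.108% for C5ar2. As counted, C3ar1 was seen in 43.6% of microglia-like cells (median depth 3601 UMIs) and 1.03% of oligodendrocyte-like cells (4971 UMIs). The corresponding shares were 25.3% and 0.619% for C5ar1, and 21.8% and 0.413% for C5ar2.

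The cluster led by S100a9 and S100a8 held most of the remaining counts of C3ar1 and C5ar1, in 111 cells. C5ar1 was at 435 and 282 CPM in the WT and 339 and 190.1 in the Dp(10)2Yey libraries there (81 UMIs). Each of these values was above that of microglia-like cells in the same library. C3ar1 had 88 UMIs and 241 ± 130 CPM there and C5ar2 had 14 UMIs and 43.1 ± 27.6 CPM, both ranges overlapping those of microglia-like cells.

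To show what lies before these microglial receptor genes, the promoters of C3ar1 and C5ar2 are printed 5′ to 3′ as the 250 bases before the gene's start (RefSeq, GRCm38.p6). C3ar1 is at chr6:122856158-122856407 and C5ar2 at chr7:16244155-16244404, both on the minus strand. The last few bases of the C3ar1 window lie inside the gene as placed above, whose highest coordinate is 122856161. Of the 9 members 6 had an entry, and C4b, Clu and Serping1 had none. The window of C5ar1 is not printed, since most of it lies inside the gene as placed above. Capitals mark GGAAGT, searched on both strands (ACTTCC on the other), a form of the sequence that ETS factors such as Spi1 of the myeloid lineage bind. Shorter or other forms were not searched.
C3ar1: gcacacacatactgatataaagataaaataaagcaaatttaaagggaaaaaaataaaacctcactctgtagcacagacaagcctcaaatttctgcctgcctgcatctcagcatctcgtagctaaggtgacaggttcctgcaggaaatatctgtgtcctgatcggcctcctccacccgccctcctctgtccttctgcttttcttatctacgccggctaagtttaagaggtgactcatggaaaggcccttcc
C5ar2: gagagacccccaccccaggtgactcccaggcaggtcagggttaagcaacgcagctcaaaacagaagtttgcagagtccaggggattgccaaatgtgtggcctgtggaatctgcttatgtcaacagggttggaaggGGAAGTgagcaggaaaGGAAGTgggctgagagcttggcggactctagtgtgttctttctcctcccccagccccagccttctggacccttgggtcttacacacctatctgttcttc

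The C5ar2 window held 2 matches, 115 and 99 bases before the start, and the C3ar1 window held 0. Of all 32851 promoter windows of this length, 6485 (19.7%) held at least 1 match. A match is a description of letters, and no binding was measured.

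Microglia-like cells fell into 3 clusters. The largest, led by Atf3, Nfkbiz and Il1a, had 1525 cells with a median of 4267 UMIs. The cluster led by Hspa1b, with P2ry12 and Tmem119 also among its leading genes, had 476 cells (3530 UMIs). The cluster led by Tyrobp had 572 cells of low depth (799.5 UMIs). The clusters were found from the same cells, so differences between them are a description with no test.

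C5ar1 was at 140.4 and 139 CPM in the WT and 167 and 159 in the Dp(10)2Yey libraries in the Atf3-led cluster. In the Hspa1b-led cluster it was at 45.6, 42.8, 46.6 and 61.2 in the same order. The level in the Atf3-led cluster was higher in every library, by 2.59 to 3.59 times (3.13 ± 0.416).

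C5ar2 went the other way. It was at 77.7 and 72.2 CPM in the WT and 58.9 and 90.4 in the Dp(10)2Yey libraries in the Atf3-led cluster, and at 111, 85.7, 73.3 and 124 in the Hspa1b-led cluster. The ratio of the former to the latter was below 1 in every library, from 0.698 to 0.843 (0.769 ± 0.0664).

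C3ar1 lay on the side of C5ar1, at 324, 292, 320.4 and 253 CPM in the Atf3-led and 127, 199, 189.9 and 181 in the Hspa1b-led cluster, in the same order of libraries (ratio 1.78 ± 0.536, from 1.40 to 2.56). The count of C5ar1 over that of C5ar2 was accordingly 2.08 ± 0.512 in the Atf3-led and 0.510 ± 0.0939 in the Hspa1b-led cluster, and the 4 values of the former (1.75 to 2.84) were all above the 4 of the latter (0.409 to 0.636). The neighbouring genes C5ar1 and C5ar2 thus had opposite orders in these clusters.

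In the low-depth cluster C3ar1 had 52.2 ± 24.8 CPM and C5ar2 37.9 ± 10.0, both below the other clusters in every library. C5ar1 had fewer than 20 UMIs there and is not shown. The Atf3-led cluster made up 56.0% and 63.9% of microglia-like cells in the WT libraries and 57.6% and 58.4% in the Dp(10)2Yey libraries. The Hspa1b-led cluster made up 15.7% and 17.1%, and 15.04% and 22.5%, so that neither cluster's share separated the genotypes.

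**Figure D2:**
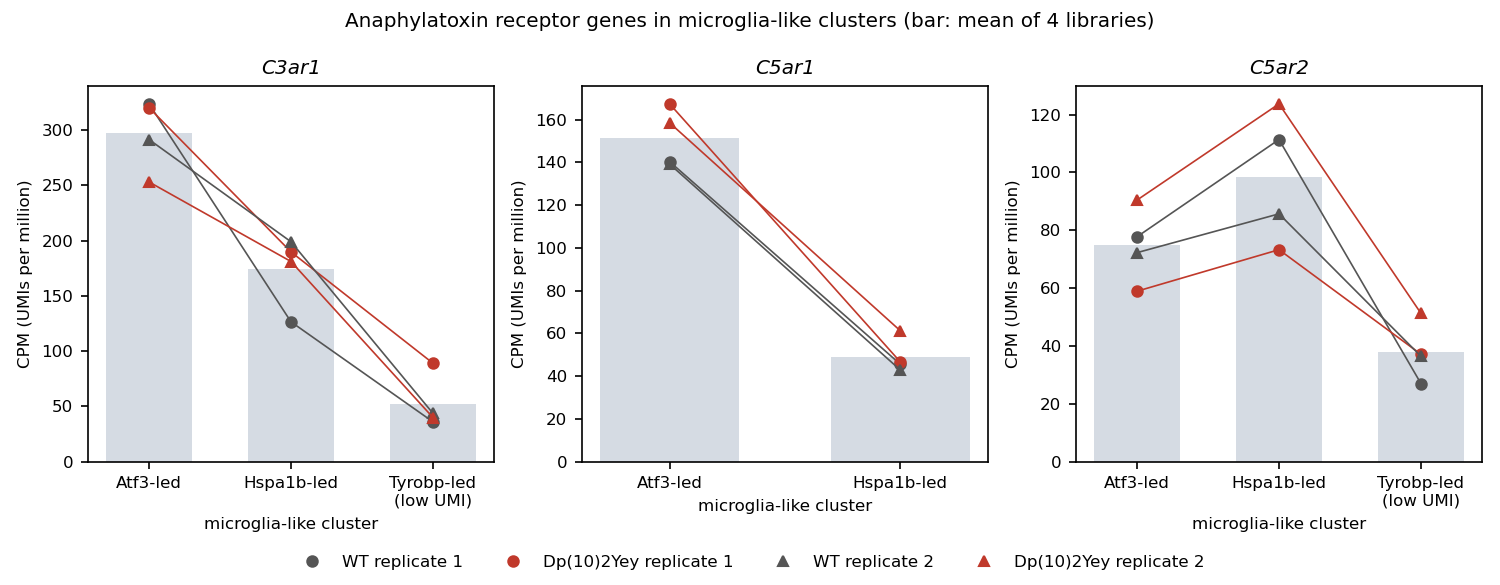
Levels of C3ar1, C5ar1 and C5ar2 in the clusters of microglia-like cells, in CPM on linear axes that start at 0. Bars are means of the 4 libraries, and lines join the points of 1 library (grey WT, red Dp(10)2Yey, circles replicate 1, triangles replicate 2). C3ar1 and C5ar1 are higher in the Atf3-led than in the Hspa1b-led cluster in every library and C5ar2 is lower in every library. C5ar1 is not drawn for the low-depth cluster, where it had fewer than 20 UMIs.

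For the 8 members with at least 100 UMIs, the genes most alike in pattern were found by Pearson's r of log2(CPM + 10) over 12 clusters, among 11926 genes, as a description. The clusters share their libraries and differ in depth. C3ar1 was most like Tlr2 (r = 0.996), Tlr7 and Ptafr, C5ar1 most like Themis2 (0.989), Il4i1 and Csf2rb, and C5ar2 most like Tifab (0.997), Naip2 and Cd33. Clu was most like Abat (0.959), Mt3 and 6430573F11Rik, and C4b most like Apoe (0.913), Pdgfc and Slc14a1. Cd59a was most like Ccdc91 (0.932), Cavin2 and Perp, Cr1l most like Ifnar2 (0.918), Lipa and Lpar6, and Serping1 most like Tmem2 (0.898), Vim and Crip1. C3 had too few UMIs for this.

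The genotypes were compared on UMIs summed per library, with 1 library per mouse, by edgeR at an adjusted p under 0.01. An exact permutation test of 2 against 2 libraries has no two-sided p below 0.33, so none is given for single values. In sums of all cells, fewer cells of a type and less RNA per cell cannot be told apart. All 9 members passed the filter on low counts there.

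In sums of all cells edgeR called 0 of 9 members, beside 0% of 13807 genes tested (377 genes at an unadjusted p under 0.05, and 3 genes called by DESeq2, with no member among them). Of the members, 1 had an unadjusted p under 0.05 by edgeR, Clu. The median log2 fold change of the members, Dp(10)2Yey over WT, was -0.06, with 4 of 9 above 0, beside 0.005 over all genes tested. The libraries of the genotypes did not overlap for 3 of 9 members, Clu above WT and Serping1 and Cd59a below, beside 26.5% of all genes in either direction. Among so few members, 3 of 9 is near the share of all genes.

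Clu was at 706 and 709.5 CPM in the WT and 874 and 1045 in the Dp(10)2Yey libraries, in sums of all cells. The WT libraries lay close together, below both Dp(10)2Yey libraries. The log2 fold change was 0.44 (SE 0.14, unadjusted p 0.0123, adjusted p 0.99997 by edgeR) and did not pass. Astrocyte-like cells, where Clu is highest, gave 8.25% and 7.23% of all UMIs in the WT libraries and 10.1% and 9.50% in the Dp(10)2Yey libraries. The share of the astrocyte-like class thus stood with Clu, and its part in the result was not tested.

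Cd59a was at 18.95 and 19.3 CPM in the WT libraries and at 16.2 and 16.3 in the Dp(10)2Yey libraries (log2 fold change -0.23, SE 0.18). Endothelial-like cells, where it is highest, gave 7.25% and 5.24% of UMIs in the WT libraries and 3.57% and 4.31% in the Dp(10)2Yey libraries, while the level within them was higher in the Dp(10)2Yey libraries. The part of this share in the result was not tested. Serping1 was at 6.77 and 7.56 CPM in the WT libraries and 3.99 and 6.75 in the Dp(10)2Yey libraries (log2 fold change -0.39, SE 0.35). Its nearest values, 6.77 and 6.75, all but met, and the log2 fold change was -0.12 without Dp(10)2Yey replicate 1 and -0.82 without Dp(10)2Yey replicate 2. The cluster led by Mgp and Prg4 held 25 of the 51 UMIs of Serping1 in WT replicate 2, and it gave 0.130% and 1.36% of all UMIs in the WT and 0% and 0.385% in the Dp(10)2Yey libraries.

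The same comparison within classes gave 21 tests of members, because most members had too few UMIs in most classes. EdgeR called 0 of the 21, with 3 at an unadjusted p under 0.05, and DESeq2 called 0. Over all genes edgeR made 7 calls in 45836 tests, all in astrocyte-like cells. Of the 30 log2 fold changes of members in all cells and classes, 16 changed sign under at least 1 other setting or left-out library.

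In microglia-like cells 0 of 5 tested members were called by edgeR, beside 0% of 9204 genes (294 at an unadjusted p under 0.05, 0 called by DESeq2). C5ar1 above WT and Cr1l below WT made 2 of 5 whose genotypes did not overlap, beside 29.9% of genes. The log2 fold change of C5ar1 was 0.16 (SE 0.15), and it was 0.27 with thinned sums. It was 0.06 at a clustering resolution of 0.5 and 0.07 at 1.0, where clusters of 1187 and 952 of these cells, led by Atf3 and Klf4 and by Klf4 and Klf2, had no name and were not counted as microglia-like. That of Cr1l was -0.30 (SE 0.17), with -0.13 without WT replicate 1 and -0.50 without WT replicate 2. C3ar1 had -0.09 (SE 0.14) and C5ar2 0.06 (SE 0.19), and both turned sign when a library was left out. With cells thinned to 1000 UMIs, C5ar1 was seen in 8.10% and 10.0% of microglia-like cells in the WT and 12.1% and 11.1% in the Dp(10)2Yey libraries, and Cr1l in 8.41% and 6.14%, and 4.61% and 5.31%, so neither overlapped at equal depth.

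In astrocyte-like cells 0 of 3 tested members were called, beside 0.106% of 6577 genes by edgeR (7 genes, with 287 at an unadjusted p under 0.05 and 2 called by DESeq2). The genotypes overlapped for all 3 (C4b, Clu and Cr1l), so 0 of 3 did not overlap, beside 32.9% of genes. The log2 fold changes of C4b (0.24, SE 0.26) and Clu (0.13, SE 0.21) turned sign when a library was left out. That of Cr1l was 0.39 (SE 0.35), but 0.04 without Dp(10)2Yey replicate 2, 0.61 without Dp(10)2Yey replicate 1 and 0.60 with thinned sums. Of 34 microglia markers 17 had both Dp(10)2Yey libraries above both WT libraries in astrocyte-like cells and 0 had both below. Cst3 gave most of their summed level, with 26316 of 28015 CPM in WT replicate 1. C3ar1 was at 0% and 0.781% of its level in microglia-like cells in the WT and 0% and 1.57% in the Dp(10)2Yey libraries, from 4 UMIs. The part of these markers in the value of Cr1l was not tested.

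In endothelial-like cells edgeR called 0 of 4 tested members, beside 0% of 4700 genes (195 at an unadjusted p under 0.05, 0 called by DESeq2). Clu and Cd59a had both Dp(10)2Yey libraries above both WT libraries, so 2 of 4 did not overlap, beside 33.1% of genes. Clu was at 112 and 155 CPM in the WT and 196 and 169.7 in the Dp(10)2Yey libraries (log2 fold change 0.40, SE 0.25), with a log2 fold change of 0.22 without WT replicate 1 and 0.71 without WT replicate 2. Of 51 astrocyte markers 49 had a UMI in endothelial-like cells, all but Chrdl1 and Hapln1, and their summed level was 2399 and 2598 CPM in the WT and 4005 and 3363 in the Dp(10)2Yey libraries. For 15 of them both Dp(10)2Yey libraries were above both WT libraries and for 3 both were below. These markers stood with Clu, and their part in the result was not tested. At 1000 UMIs per cell, Clu was seen in 8.82% and 23.7% of these cells in the WT and 5.13% and 16.7% in the Dp(10)2Yey libraries. These shares overlapped between the genotypes, with the Dp(10)2Yey library lower for each replicate number. The log2 fold change of Clu with thinned sums was 0.45, against 0.40 as counted.

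Cd59a in endothelial-like cells had a log2 fold change of 0.22 (SE 0.23). It was 0.02 with thinned sums, 0.34 without WT replicate 2 and 0.14 when Dp(10)2Yey replicate 2 was left out. The share of these cells with a UMI of Cd59a at 1000 UMIs per cell was 11.8% and 15.3% in the WT and 23.1% and 9.09% in the Dp(10)2Yey libraries, so the genotypes overlapped at equal depth. Of 22 mural cell markers 11 had both Dp(10)2Yey libraries above both WT libraries in this class and 0 had both below. Microglia markers went the other way, with 0 of 34 above and 14 below, and summed to 6105 and 8483 CPM in the WT and 4788.5 and 5955 in the Dp(10)2Yey libraries.

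In ependymal-like cells Clu was the only member tested, and edgeR called 0 of 1, beside 0% of 2809 genes (106 at an unadjusted p under 0.05, 0 called by DESeq2). Its genotypes overlapped (0 of 1 apart, beside 29.8% of genes), with a log2 fold change of 0.11 (SE 0.26) that was 0.03 without WT replicate 1, 0.23 without WT replicate 2 and 0.05 with thinned sums. In choroid plexus epithelial-like cells Clu was again the only one tested, with 0 of 1 called by edgeR beside 0% of 770 genes (27 at an unadjusted p under 0.05, 0 called by DESeq2). It overlapped there too (0 of 1, beside 30.3% of genes), with a log2 fold change of -0.39 (SE 0.34) that turned sign when a library was left out.

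In oligodendrocyte precursor-like cells edgeR called 0 of 2 tested members, beside 0% of 8079 genes (288 at an unadjusted p under 0.05, 0 called by DESeq2). Clu had both Dp(10)2Yey libraries above both WT libraries, making 1 of 2 apart beside 30.6% of genes. It was at 232 and 236 CPM in the WT and 245 and 279 in the Dp(10)2Yey libraries (log2 fold change 0.16, SE 0.20). The log2 fold change was 0.0082 with thinned sums, 0.05 without Dp(10)2Yey replicate 2 and 0.25 without Dp(10)2Yey replicate 1. The shares of cells with a UMI at equal depth overlapped, at 26.4% and 21.8% in the WT and 18.4% and 24.0% in the Dp(10)2Yey libraries. Of 51 astrocyte markers 49 had a UMI in these cells. For 10 both Dp(10)2Yey libraries were above both WT libraries and for 7 both were below. Their summed level overlapped between the genotypes, at 7505 and 6666 CPM in the WT and 7079 and 7247 in the Dp(10)2Yey libraries. The part of the markers in the value of Clu was not tested.

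In oligodendrocyte-like cells edgeR called 0 of 4 tested members, beside 0% of 8604 genes (227 at an unadjusted p under 0.05, 0 called by DESeq2). Only Clu had genotypes that did not overlap, 1 of 4, beside 29.3% of genes. Clu was at 22.0 and 32.5 CPM in the WT and 68.7 and 79.4 in the Dp(10)2Yey libraries, from 12, 55, 85 and 137 UMIs. Both Dp(10)2Yey libraries were more than 2 times as high as either WT library, though every value was at or below 1.02% of that in astrocyte-like cells of the same library. In cells thinned to 1000 UMIs, Clu was seen in 0.943% and 4.93% of oligodendrocyte-like cells in the WT and 4.69% and 8.03% in the Dp(10)2Yey libraries, so the shares overlapped at equal depth, Dp(10)2Yey replicate 1 lying below WT replicate 2.

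The log2 fold change of Clu in oligodendrocyte-like cells was 1.34 (SE 0.24, unadjusted p 6.58e-05, adjusted p 0.189 by edgeR), which did not pass. It passed in edgeR without Dp(10)2Yey replicate 1 (log2 fold change 1.42, adjusted p 6.74e-06) and without Dp(10)2Yey replicate 2 (1.20, adjusted p 0.00392), where the lone sample is assumed to vary like those of the other genotype. It also passed with the replicate number as a block (1.37, adjusted p 1.58e-06) and with no filter on low counts (1.35, adjusted p 0.000138). Over all settings the adjusted p ran from 1.58e-06 upward, to 1 by DESeq2, and the direction was the same in all.

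Markers of astrocytes stood with Clu in oligodendrocyte-like cells. Of 52 astrocyte markers outside the duplicated stretch 51 had a UMI, all but Chrdl1, and 29 had both Dp(10)2Yey libraries above both WT libraries, against 4 with both below. Their summed level was 1021 and 1250.3 CPM in the WT libraries and 1989 and 1524 in the Dp(10)2Yey libraries, and that of Slc1a2, the most abundant, was 62.2 and 96.3, and 291 and 169. As a percent of the level in astrocyte-like cells, the sum was 1.499% and 1.76% in the WT and 2.81% and 1.99% in the Dp(10)2Yey libraries, and Clu was 0.379% and 0.444%, and 1.02% and 0.9998%. The part of these markers in the result was not tested. The markers did not stand with Clu in every class, as given for oligodendrocyte precursor-like cells above. In microglia-like cells their sum was 471 and 419 CPM in the WT and 515 and 564 in the Dp(10)2Yey libraries. There 15 of 52 markers had both Dp(10)2Yey libraries above both WT libraries and 5 had both below, but Clu overlapped between the genotypes.

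C4b in oligodendrocyte-like cells was at 12.8 and 45.5 CPM in the WT and 17.8 and 20.3 in the Dp(10)2Yey libraries. WT replicate 2 alone was high, and the other WT library was the lowest of the 4. The log2 fold change was -0.85 (SE 0.38, unadjusted p 0.0428, adjusted p 0.99989 by edgeR) and became -0.41 with thinned sums and 0.58 without WT replicate 2, so its direction rests on that library.

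In neuron-like cells Clu was the only member tested, and edgeR called 0 of 1, beside 0% of 5093 genes (173 at an unadjusted p under 0.05, 0 called by DESeq2). It was at 323 and 421 CPM in the WT and 867 and 655 in the Dp(10)2Yey libraries. Both Dp(10)2Yey libraries were above both WT libraries (1 of 1, beside 25.3% of genes). So were the shares of cells with a UMI at equal depth, 30.3% and 29.7% in the WT and 48.2% and 38.75% in the Dp(10)2Yey libraries. The log2 fold change was 1.23 (SE 0.44, unadjusted p 0.0157, adjusted p 0.996 by edgeR).

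That value depended on which cells were counted as neuron-like. It was 0.43 without cells of over 20% mitochondrial UMIs, and -1.10 at a clustering resolution of 1.0, where only 119 cells were named neuron-like. Without Dp(10)2Yey replicate 1 it was 0.60. All 52 astrocyte markers had a UMI in neuron-like cells, and 26 had both Dp(10)2Yey libraries above both WT libraries, against 1 with both below. Their summed level was 6634 and 7074 CPM in the WT and 11554 and 9734 in the Dp(10)2Yey libraries, with Mt3 the most abundant, and their part in the result was not tested.

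**Figure D3:**
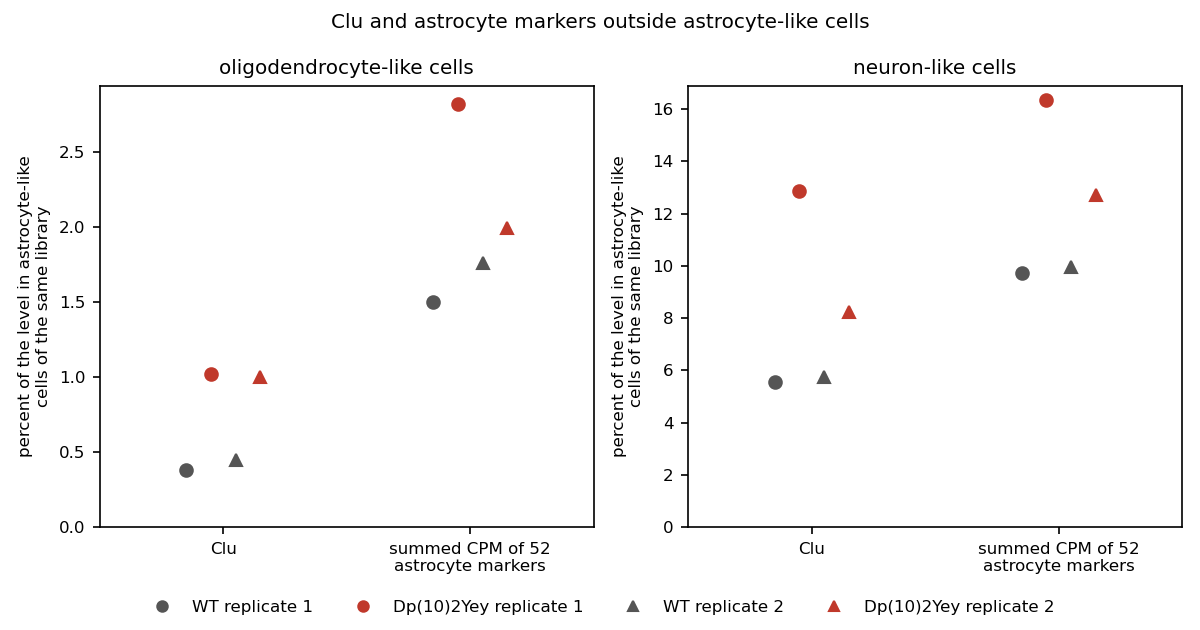
Clu and the summed astrocyte markers in oligodendrocyte-like (left) and neuron-like cells (right), as a percent of the level in astrocyte-like cells of the same library, on linear axes that start at 0. Points are libraries, grey for WT and red for Dp(10)2Yey. In both classes the Dp(10)2Yey points lie above the WT points for Clu and for the markers.

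**Figure D4:**
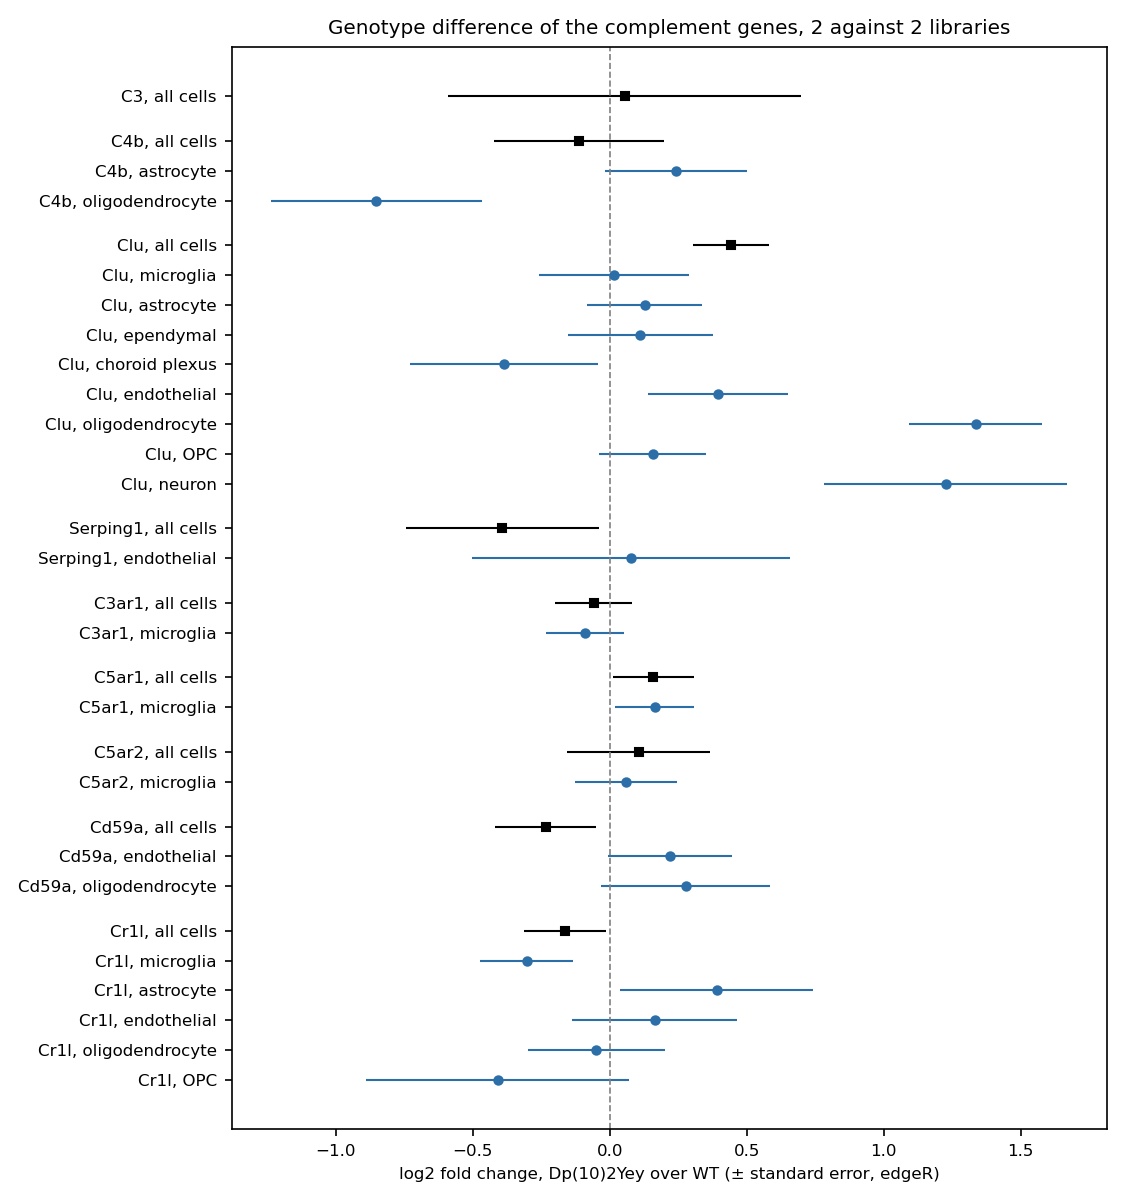
Log2 fold change of Dp(10)2Yey over WT for each member tested, with its standard error from edgeR, in sums of all cells (black squares) and within classes (blue circles). No test passed the adjusted threshold of 0.01, and Clu in oligodendrocyte-like cells (1.34) and in neuron-like cells (1.23) lie farthest to the right.

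Other complement genes were taken from a list of 52 without the C1q chains, of which 51 are among the genes of the files, 38 had a UMI and 16 had at least 100. The list holds 15 genes of classical and lectin initiation, 4 of the alternative pathway, 6 of the terminal complex, 20 regulators and 7 receptors. Only 1 initiation gene, Masp1, reached 100 UMIs, no gene of the alternative or terminal steps did, and 11 regulators and 4 receptors did. In sums of all cells 22 of them were tested, with 0 called by edgeR, 3 at an unadjusted p under 0.05 (beside 377 of all 13807 genes) and 0 called by DESeq2. Of these, 13 were above 0, with a median log2 fold change of 0.04. Within classes edgeR called 0 in 36 tests, with 6 at an unadjusted p under 0.05 (beside 1597 of 45836 tests of all genes) and 0 called by DESeq2. Under the alternatives 2 of these genes passed, Cd93 in sums of all cells and Vtn in endothelial-like cells.

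Of the 3 genes at an unadjusted p under 0.05 in sums of all cells, Cd93 and Csmd1 had negative log2 fold changes and Itgb2 a positive one (0.56, SE 0.16). Cd93, listed among the receptors, had -1.31 (SE 0.44, unadjusted p 0.0177, adjusted p 0.99997 by edgeR), which passed with no filter on low counts (-1.30, adjusted p 6.75e-05) and became -0.44 without WT replicate 1. Endothelial-like cells held 324 of its 337 UMIs, at 513 and 237 CPM in the WT and 246 and 224.5 in the Dp(10)2Yey libraries, with WT replicate 1 alone high. The share of UMIs from endothelial-like cells, given with Cd59a, was higher in both WT libraries. Csmd1, a membrane regulator, had -0.60 (SE 0.19, unadjusted p 0.0144, adjusted p 0.99997 by edgeR).

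Some of these genes sat in the same cells as the members. Itgam, the alpha chain of complement receptor 3, had 96.9% of 4536 UMIs in microglia-like cells (487 ± 20.2 CPM). Cd55 and Cd59b, both membrane regulators, were highest in ependymal-like cells, with 87 of 135 and 63 of 101 UMIs. So the copies Cd59a and Cd59b, as counted, had different leading classes.

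Itgb2, the beta chain of the same receptor and a gene of the duplicated stretch, was at 185 and 174 CPM in the WT and 279 and 234.7 in the Dp(10)2Yey libraries in microglia-like cells. Both Dp(10)2Yey libraries were above both WT libraries (log2 fold change 0.49, SE 0.14, unadjusted p 0.00248, adjusted p 0.761 by edgeR). Itgam, its partner outside the stretch, was at 481.8 and 467.4 in the WT and 515.1 and 482.3 in the Dp(10)2Yey libraries, which were also both above, if narrowly (log2 fold change 0.04, SE 0.13, which was -0.01 without Dp(10)2Yey replicate 1).

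Vtn, which encodes the regulator vitronectin and is a marker of mural cells, was at 1354 and 1136 CPM in the WT and 2724 and 2096.5 in the Dp(10)2Yey libraries in endothelial-like cells. Both Dp(10)2Yey libraries were above both WT libraries (log2 fold change 0.95, SE 0.21, unadjusted p 0.00049, adjusted p 0.820 by edgeR), and it did not pass. It passed with the replicate number as a block (0.95, adjusted p 0.00766), with no filter on low counts (0.97, adjusted p 0.00178) and without Dp(10)2Yey replicate 2 (1.16, adjusted p 0.00188). The 21 other mural cell markers, 20 of them with a UMI and Cnn1 at 0, summed to 2091 and 2106 CPM in the WT and 4520 and 3373 in the Dp(10)2Yey libraries. Of these, 10 had both Dp(10)2Yey libraries above both WT libraries and 0 had both below, and their part in the result was not tested.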

How the data were processed

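Hippocampal cells of 2 WT and 2 Dp(10)2Yey mice were analysed, with 1 library per mouse. The authors deposited raw UMI counts per gene and barcode from Cell Ranger 3.0.2 (custom mm10 reference, GRCm38), without normalization, for barcodes called as cells only. The deposited files of the other kinds hold barcode and gene names. The other experiments of the study were not analysed here. The 9 members and all lists were chosen with earlier results of these data known.

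Filters followed the study (200 genes per cell, each gene in more than 3 cells), and 34 red blood cells (a cluster with a median of over 20% globin UMIs at a resolution of 0.5) were removed. Clustering used Seurat 5.3.0 in R 4.3.3 with 2000 variable genes, from which the 6 members among them were left out, 50 dimensions, canonical correlation integration and a resolution of 0.2. Names were given to clusters whose 10 leading genes (10 CPM added before each fold) held 3 or more markers of 1 class, more than of any other, where the first was not a marker of another class. This rule was set after the clusters were seen. Scrublet in scanpy 1.11.5 called 58 of 6247 cells doublets (0.928%), which were kept in the main analysis.

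Levels are UMIs per 1000000 UMIs of a class in a library. A count of 0 was taken to allow up to 3 counts, which covers counting error only. Shares of cells at equal depth used cells thinned to 1000 UMIs, leaving out 1130 cells below that. Thinned sums brought each library's summed UMIs down to the total of the smallest library in that comparison. Each kind of thinning was a single random draw. Values from few UMIs thus also vary with the draw, and how much was not measured. UMIs summed per library, and per library and class with at least 10 cells in every library, were compared with edgeR 4.0.16 (TMM, filterByExpr by genotype, quasi-likelihood test, no block, Benjamini-Hochberg over all genes tested, threshold 0.01, two-sided). This comparison was also run on simulated data, and that outcome is not given here. Genes named are the members, the listed complement genes, the 3 genes most like each member with at least 100 UMIs, genes of the duplicated stretch, class markers, the leading genes of clusters and, as background, Spi1. Marker lists leave out genes of the duplicated stretch and markers shared with the class examined.

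Alternatives were a threshold of 0.05, the replicate number as a block, DESeq2 1.42.0, RLE size factors, all genes with a UMI, thinned sums, cells without doublets, cells of at most 20% mitochondrial UMIs, resolutions of 0.5 and 1.0, members kept among the variable genes, each library left out in turn and, for leading classes only, no integration and means over cells. A crossed pairing of replicates was added after the data were seen. Coordinates are from GENCODE M21 and promoters from RefSeq.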

Additional observations from a re-analysis of the deposited data

Results flagged for a closer look

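Cd59a went opposite ways in 2 classes, both Dp(10)2Yey libraries being above both WT libraries in endothelial-like cells and below both in ependymal-like cells. The log2 ratios of mean CPM differed by 1.12. The difference was not tested, and the ependymal-like values rest on 25 UMIs. With thinned sums the log2 fold change in endothelial-like cells was 0.0234 against 0.22, and the shares of cells with a UMI at 1000 UMIs overlapped there.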

How the results depend on the processing

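In sums of all cells, 0 of 9 members passed under the alternatives fitted, by edgeR or DESeq2, with 8 of them tested with thinned sums. Within classes, 0 passed except 1, Clu in oligodendrocyte-like cells, with the replicate block, with no filter on low counts, without Dp(10)2Yey replicate 1 and without Dp(10)2Yey replicate 2 (0 to 1 over the left-out libraries), and the cause was not tested. Of the other complement genes 0 passed except Vtn in endothelial-like cells (the replicate block, no filter, and without Dp(10)2Yey replicate 2) and Cd93 in sums of all cells (no filter). The leading class was the same for 9 of 9 members, or for 8 with no integration or means over cells, and also without WT replicate 2 or Dp(10)2Yey replicate 1, where Serping1 was highest in endothelial-like cells. Of 99 levels in a leading class 4 moved by more than the SD, C3ar1 to 226 and C5ar1 to 112.5 CPM at a resolution of 0.5, and to 231 and 103 as means over cells. At a resolution of 0.5 a cluster of 1187 microglia-like cells, led by Atf3 and Klf4, had no name and was left out of that class.

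Of 412 log2 fold changes under alternatives, 384 kept their sign and 28, of 16 results, turned it, and the cause was not tested. By DESeq2 it was -0.20 for Serping1 in endothelial-like and -0.0617 for Clu in microglia-like cells. With thinned sums it was -0.10 for Cr1l in endothelial-like and -0.14 for Clu in microglia-like cells. The last was -0.0497 with members kept among the variable genes, and 0.51 without doublets against 0.0166 with them. At a resolution of 0.5 it was 0.035 for C3ar1 in microglia-like cells, and at 1.0 it was -1.10 for Clu in neuron-like cells.

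Leaving out 1 library at a time, in sums of all cells, gave log2 fold changes from -0.91 to 0.98 for C3, -0.59 to 0.35 for C4b, -0.15 to 0.0325 for C3ar1 and -0.38 to 0.43 for C5ar2. In astrocyte-like cells they ran from -0.56 to 0.67 for C4b and -0.0314 to 0.33 for Clu, and in choroid plexus epithelial-like cells from -0.74 to 0.28 for Clu. In endothelial-like cells they ran from -1.80 to 0.68 for Serping1 and -0.33 to 0.41 for Cr1l. In microglia-like cells they ran from -0.48 to 0.47 for Clu, -0.26 to 0.0799 for C3ar1 and -0.34 to 0.32 for C5ar2. In oligodendrocyte precursor-like cells they ran from -0.91 to 1.62 for Cr1l, and in oligodendrocyte-like cells from -1.26 to 0.58 for C4b and -0.18 to 0.0544 for Cr1l.

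Over all genes, calls in sums of all cells and within classes were 0 and 7. They became 0 and 16 at a threshold of 0.05, 0 and 66 with the replicate block, 87 and 102 with no filter, 3 and 2 by DESeq2, 0 and 3 without doublets and 0 and 12 at a resolution of 1.0. Without 1 library they were 4 and 73 (WT replicate 1), 2 and 201 (Dp(10)2Yey replicate 1), 0 and 57 (WT replicate 2) and 2 and 72 (Dp(10)2Yey replicate 2).

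The study prepared a mouse of each genotype on each of 2 days, but does not state how the replicate numbers fall on these days. Deviations of same-numbered libraries correlated over genes from -0.239 (choroid plexus epithelial-like) to 0.233 (oligodendrocyte-like). Clu in oligodendrocyte-like cells had a log2 fold change of 1.37 with the replicate block. A crossed pairing in choroid plexus epithelial-like cells, added after the data were seen, gave 13 calls against 0, with no member among them.

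WT replicate 1, with the fewest UMIs, and the small ependymal-like and choroid plexus epithelial-like classes (125 cells each) may limit what could be detected. With 2 mice per genotype, mouse-to-mouse spread is poorly known. Members outside the 21 tests within classes had too few UMIs for one.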
